A study of Saccharomyces cerevisiae with 6 samples.

Results

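The tRNA pool of wild type *Saccharomyces cerevisiae* was described from the 2 wild type libraries, of 6 tRNA-HySeq libraries in the series. Both came from the strain DAS217, whose full genotype is not given in the sources used here, grown at 30 °C in YEP medium with 2% dextrose and taken in log phase at an A600 of 0.6 to 0.8. In tRNA-HySeq, gel-purified tRNA is cut by mild alkaline hydrolysis, and fragments of 19 to 35 nucleotides are cloned and sequenced. The 2 libraries carry replicate numbers 1 and 2, but nothing in the labels says that they came from separate cultures, and the names of their deposited files carry the set numbers 1 and 2, which the labels do not explain, so that replicate and set number cannot be told apart. The measured quantity was the number of reads on each of 70 listed tRNA sequences, which stand for 42 anticodon types and 1 tRNA of undetermined specificity, and for all 20 amino acids. Reads aligned to these sequences numbered 519302 in replicate 1 and 1435676 in replicate 2, or 6.76% and 6.43% of all reads. Every listed sequence was read, with 67 to 74610 reads in replicate 1 and 90 to 258739 in replicate 2.

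Each tRNA carries 1 amino acid to the ribosome and pairs through its anticodon with a codon of the mRNA. tRNAs with different anticodons that carry the same amino acid are isoacceptors, and methionine has a separate initiator tRNA that starts translation and an elongator tRNA that reads internal codons. tRNA genes are transcribed by RNA polymerase III, and in yeast many of them occur in several identical copies spread over the chromosomes.

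A share here is the reads of a tRNA as a percentage of the reads aligned to all listed tRNAs of that library. It counts cloned and aligned fragments, and how closely it follows the number of tRNA molecules was not tested. A longer tRNA yields more fragments per molecule, so tRNAs were compared with each other by the length-corrected share, which is the reads per nucleotide of the spliced tRNA as a percentage of the sum over all tRNAs. Spliced lengths ran from 71 to 84 nucleotides. The R64 annotation holds 275 nuclear tRNA genes, of which 273 have an anticodon and 2 are of undetermined specificity. A type's gene number was counted there.

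The sequences on which the results turn are given from the RefSeq R64 genome, with introns removed, 5′ to 3′, and with the anticodon in capitals. The methionine pair holds the most read sequence of the pool and the initiator, which share an anticodon but no stretch of 19 bases. Elongator methionine tRNA has 5 genes, among them EMT1 (chrIV:1175829-1175901, plus strand), and the initiator has 5 identical genes, among them YNCC0008W (chrIII:149920-149991, plus strand), of which 4 are noted as initiator in the annotation and the fifth was assigned by its identical sequence.
tRNA-Met(CAU), elongator: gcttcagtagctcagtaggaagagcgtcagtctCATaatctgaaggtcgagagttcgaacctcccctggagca
tRNA-iMet(CAU), initiator: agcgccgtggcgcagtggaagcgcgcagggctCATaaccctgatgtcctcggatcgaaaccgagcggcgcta

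The least read tRNA, tRNA-Ser(CGA), is encoded by the single gene SUP61 (chrIII:227942-228042, plus strand, with an intron of 19 bases that is left out here), and tRNA-Ser(UGA), which has 3 genes including SUP17 (chrIX:248850-248931, plus strand), stood next to it in the order. The spliced forms differ at 3 of 82 positions.
tRNA-Ser(CGA): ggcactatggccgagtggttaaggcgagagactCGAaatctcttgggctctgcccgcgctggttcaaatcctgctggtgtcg
tRNA-Ser(UGA): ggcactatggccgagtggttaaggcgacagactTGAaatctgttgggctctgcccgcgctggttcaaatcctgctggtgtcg

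Aspartate and glutamine tRNAs show how close the listed sequences of 1 amino acid can be. The aspartate sequence of 15 genes, among them YNCB0016W (chrII:405960-406031, plus strand), and that of the single gene YNCN0008C (chrXIV:519099-519169, minus strand) are identical over their last 64 bases. The single tRNA-Gln(CUG) gene, CDC65 (chrXIII:808246-808317, minus strand), differs at 4 of 72 positions from the tRNA-Gln(UUG) sequence of 7 genes, shown for YNCC0010C (chrIII:168301-168372, minus strand).
tRNA-Asp(GUC), 15 genes: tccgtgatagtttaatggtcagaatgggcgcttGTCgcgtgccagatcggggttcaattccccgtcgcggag
tRNA-Asp(GUC), 1 gene: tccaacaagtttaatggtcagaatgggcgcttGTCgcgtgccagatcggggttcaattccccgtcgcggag
tRNA-Gln(CUG), 1 gene: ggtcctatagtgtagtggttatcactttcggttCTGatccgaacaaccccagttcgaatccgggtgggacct
tRNA-Gln(UUG), 7 genes: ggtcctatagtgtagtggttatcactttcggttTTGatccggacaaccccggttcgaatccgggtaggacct

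Threonine holds the tRNA that differed most between the 2 libraries. The gene of tRNA-Thr(CGU) is TRT2 (chrXI:46735-46806, minus strand). The tRNA-Thr(UGU) genes hold 2 sequences that differ at 2 positions, 1 with 3 genes, including YNCG0027W (chrVII:661749-661820, plus strand), and 1 with a single gene, YNCH0015W (chrVIII:466990-467061, plus strand).
tRNA-Thr(CGU): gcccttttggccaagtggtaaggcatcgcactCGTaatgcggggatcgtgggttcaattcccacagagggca
tRNA-Thr(UGU), 3 genes: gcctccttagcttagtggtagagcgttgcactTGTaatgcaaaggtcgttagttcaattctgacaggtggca
tRNA-Thr(UGU), 1 gene: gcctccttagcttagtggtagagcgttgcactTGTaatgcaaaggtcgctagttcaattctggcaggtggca

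A few tRNAs made up most of the aligned reads in both wild type libraries. The 10 most read sequences by the mean of both libraries held 55.9% of the aligned reads in replicate 1 and 66.8% in replicate 2 (61.4% ± 7.75, SD, n = 2), and the 3 most read held 34.1% and 41.9%. The 10 least read held 0.943% and 0.602%. The same 10 sequences were highest whether or not the reads were divided by length, and no sequence moved by more than 5 places. The spread of the pool over anticodon types, given by the exponential of the Shannon entropy of their shares, was that of 23.1 equally abundant types in replicate 1 and 19.1 in replicate 2, out of 43. The pool of replicate 2 was therefore the more concentrated.

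The most read sequence was elongator tRNA-Met(CAU). It had 74610 reads in replicate 1 and 258739 in replicate 2, or 14.4% (14.27 to 14.46% as a Wilson 95% interval) and 18.0% (17.96 to 18.09%) of all aligned reads, a mean of 16.2% ± 2.58 (SD, n = 2). Second was the tRNA-Asp(GUC) sequence of 15 genes, with 68355 and 245997 reads, or 13.2% and 17.1%. When the sequence of the remaining aspartate gene (8433 and 21777 reads) was added, the order turned, and the aspartate type led with a length-corrected share of 15.0% in replicate 1 and 18.9% in replicate 2, against 14.4% and 18.0% for elongator methionine. The ranges of these 2 types overlapped, while each library on its own put aspartate first.

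tRNA-Gly(GCC) was next, with 6.59% and 6.75% of the aligned reads in replicates 1 and 2, and differed least between the libraries among the 10 most read. tRNA-Ile(AAU), the major isoleucine tRNA, held 5.51% and 4.13%, and tRNA-Gly(UCC) held 2.57% and 6.38%. tRNA-Cys(GCA), the only cysteine tRNA, held 4.10% and 2.57%. Gly(UCC) thus stood well below Cys(GCA) in replicate 1 and above it in replicate 2. The remaining 4 of the 10 most read were the second listed tRNA-Gln(UUG) sequence with 2.57% and 3.41%, tRNA-Thr(AGU) with 3.15% and 2.62%, tRNA-Gln(CUG) with 2.38% and 3.28%, and tRNA-His(GUG), the only histidine tRNA, with 1.48% and 2.55%. In the order of the anticodon types by length-corrected share, 38 of the 42 neighbouring pairs had overlapping ranges over the 2 libraries. The 4 breaks lay between elongator methionine and Gly(GCC), between Gly(GCC) and Ile(AAU), between tRNA-Leu(UAG) and tRNA-Leu(GAG), and between tRNA-Ser(GCU) and Ser(UGA).

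**Figure D1:**
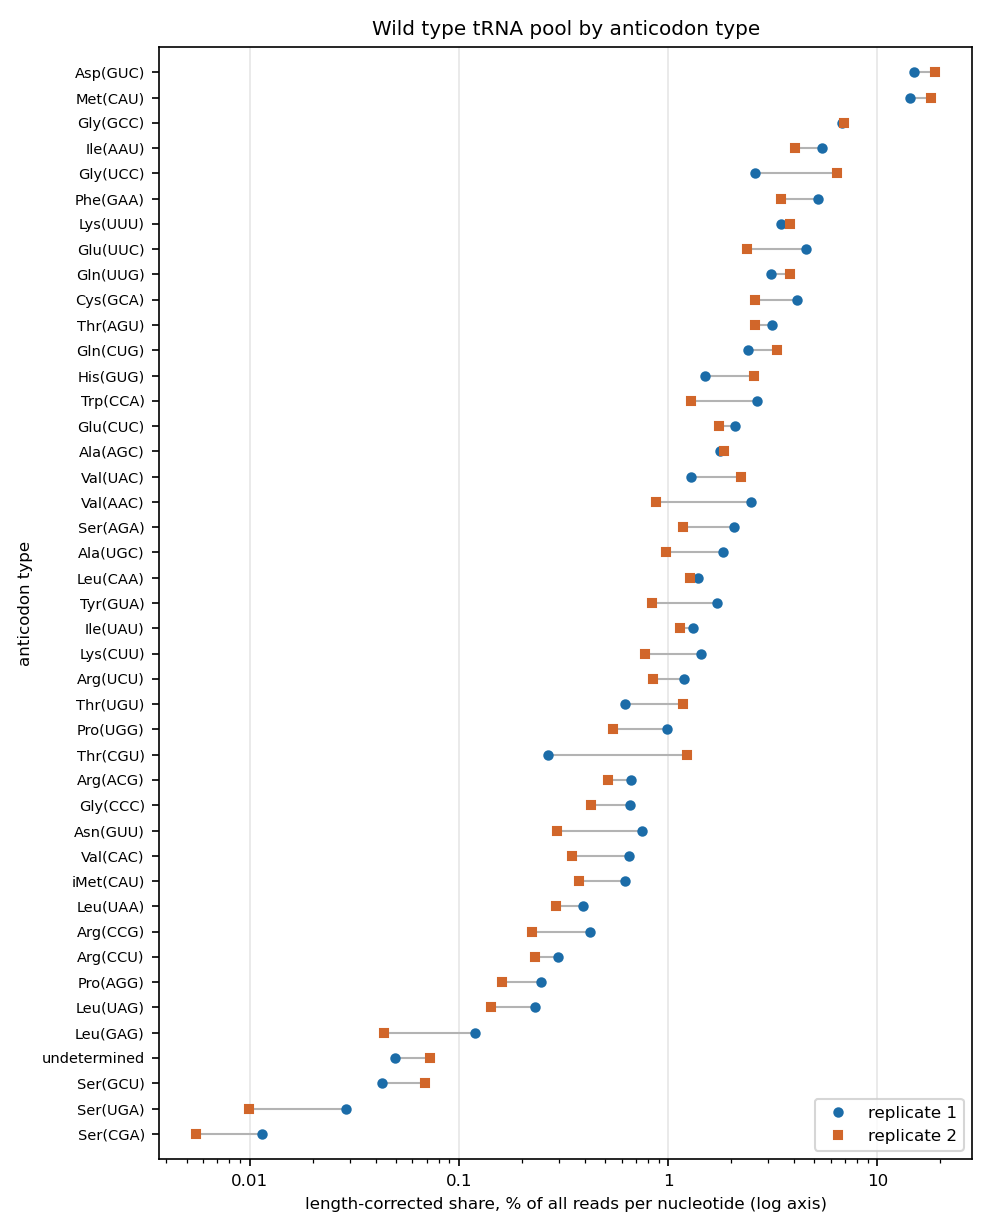
Length-corrected share of the 42 anticodon types and the tRNA of undetermined specificity, in percent on a log axis, ordered by the mean of the 2 libraries, with circles for replicate 1, squares for replicate 2 and a line between them. Asp(GUC) and elongator Met(CAU) stand apart at the top, Ser(UGA) and Ser(CGA) at the bottom, and most neighbours between them overlap.

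Serine tRNAs filled the low end. tRNA-Ser(CGA), which reads UCG codons, had 67 reads in replicate 1 and 90 in replicate 2, or 0.0129% (Wilson interval 0.0102 to 0.0164%) and 0.00627% (0.0051 to 0.0077%) of the aligned reads. tRNA-Ser(UGA) had 168 and 160 reads, or 0.0324% and 0.0111%. The reads of elongator methionine exceeded those of Ser(CGA) 1251-fold per nucleotide in replicate 1 and 3229-fold in replicate 2. These levels were far over the limit set by depth, since 3 counts amount to 0.000578% and 0.000209% of the aligned reads, limits that like the intervals cover counting error only.

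Next came tRNA-Ser(GCU) with 251 and 1119 reads and the tRNA of undetermined specificity with 281 and 1151 reads. No departure of these 2 counts from an equal split was detected in either library (chi-square test, smaller of the adjusted p-values 0.319). Of the 35-nucleotide windows of the Ser(GCU) genes, 55.2% also occur in the undetermined genes. Reads from those windows fit both, and how they were placed is not given in the sources used here. This pair was chosen after its values were seen. The other 6 of the 10 least read sequences were a second tRNA-Pro(UGG) sequence (632 and 864 reads), Leu(GAG) (697 and 712 reads), both tRNA-Leu(UAG) sequences (672 to 682 and 1093 to 1205 reads) and 2 copies of the other Pro(UGG) sequence (720 to 729 and 1102 to 1150 reads). All 10 therefore decode serine, leucine or proline, or share windows with a serine tRNA. Of the 70 listed sequences, serine has 5, leucine 9, proline 8 and the undetermined tRNA 1. Of the 10 least read, all but Ser(UGA) and Leu(GAG) are listed with an intron, as are 29 of the 70 sequences. Junction reads have no ungapped match in a sequence listed with its intron. Summed over its 7 listed sequences, Pro(UGG) held 0.979% and 0.541% of the aligned reads and ranked 27 of 43 types by mean share.

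Serine and leucine tRNAs, which carry a long variable arm, were put together after these values were seen. Their 8 types have 13.8% of the tRNA genes, and held a length-corrected share of 4.28% in replicate 1 and 3.02% in replicate 2. Their median type had a length-corrected share of 0.134%, beside 1.28% over all 43 types. Only tRNA-Ser(AGA), at 2.07% and 1.18%, and tRNA-Leu(CAA), at 1.38% and 1.27%, stood over 1% in both libraries among these 8.

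By amino acid, aspartate (14.8% and 18.7% of the aligned reads in replicates 1 and 2), methionine (15.0% and 18.4%) and glycine (9.81% and 13.6%) led the pool. Glutamine followed with 5.42% and 7.07%, isoleucine with 6.83% and 5.27%, and glutamate with 6.56% and 4.09%. Lysine held 4.91% and 4.62%, threonine 4.03% and 5.0%, phenylalanine 5.23% and 3.46%, and valine 4.47% and 3.50%. The other 10 amino acids had lower mean shares than these. Cysteine held 4.10% and 2.57%, alanine 3.59% and 2.83%, leucine 2.40% and 1.98%, and arginine 2.55% and 1.81%. Histidine held 1.48% and 2.55%, tryptophan 2.61% and 1.27%, and serine 2.43% and 1.43%. Tyrosine held 1.76% and 0.867%, proline 1.22% and 0.699%, and asparagine, with 10 genes of a single type, was last with 0.761% and 0.30%. Breaks with no overlap in length-corrected share lay between methionine and glycine, between glycine and glutamine, and between alanine and arginine, and the other 16 of 19 neighbouring pairs overlapped.

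The order of the amino acids had little in common with codon number. Across the 20 amino acids, the mean share had a Spearman rho of 0.0887 with the percentage of codons in 6002 annotated coding sequences, each counted once whatever its mRNA level, while gene number and codon percentage had a rho of 0.742. With gene number, the mean share of the amino acids had a rho of 0.256 (0.182 in replicate 1 and 0.263 in replicate 2). Leucine and serine take 9.50% and 8.99% of the codons, and their length-corrected shares were 1.94% ± 0.267 and 1.71% ± 0.626 (SD, n = 2). Methionine takes 2.07% of the codons, and had a length-corrected share of 16.7% ± 2.37. Asparagine takes 6.15% of the codons, and had 0.523% ± 0.322.

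Across the 42 anticodon types, the mean share had, with gene number, a Spearman rho of 0.55 (Pearson r of 0.559 on log2 values). In replicate 1 rho was 0.627 and in replicate 2 it was 0.464. The points share 2 libraries and their depth and are not independent replicates, so that these are descriptions. With the number of codons complementary to the anticodon in place of gene number, rho was 0.373. Only the exact complement of each anticodon was counted there, and any other codons that a type reads were left out. The 10 types with more than 10 genes have 47.6% of the genes, and held a length-corrected share of 43.9% and 40.4%. The 15 types with 2 to 5 genes have 16.7% of the genes, and held 30.7% and 35.8%, of which elongator methionine gave 14.4% and 18.0%.

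Reads per gene differed widely between types of equal gene number. Per gene, the length-corrected share ran from 0.00644% for Ser(UGA) to 3.23% for elongator methionine, around a median of 0.256% over the 42 types. The 6 types with 1 gene ran from the second lowest to the second highest value per gene, with Gln(CUG) at 2.41% in replicate 1 and 3.32% in replicate 2 and Ser(CGA) at 0.0115% and 0.00556%. Gln(CUG) and elongator methionine were the only 2 types over 1% per gene in both libraries. The lowest of the types with 14 genes, tRNA-Lys(CUU), had 0.103% and 0.0552% per gene.

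**Figure D2:**
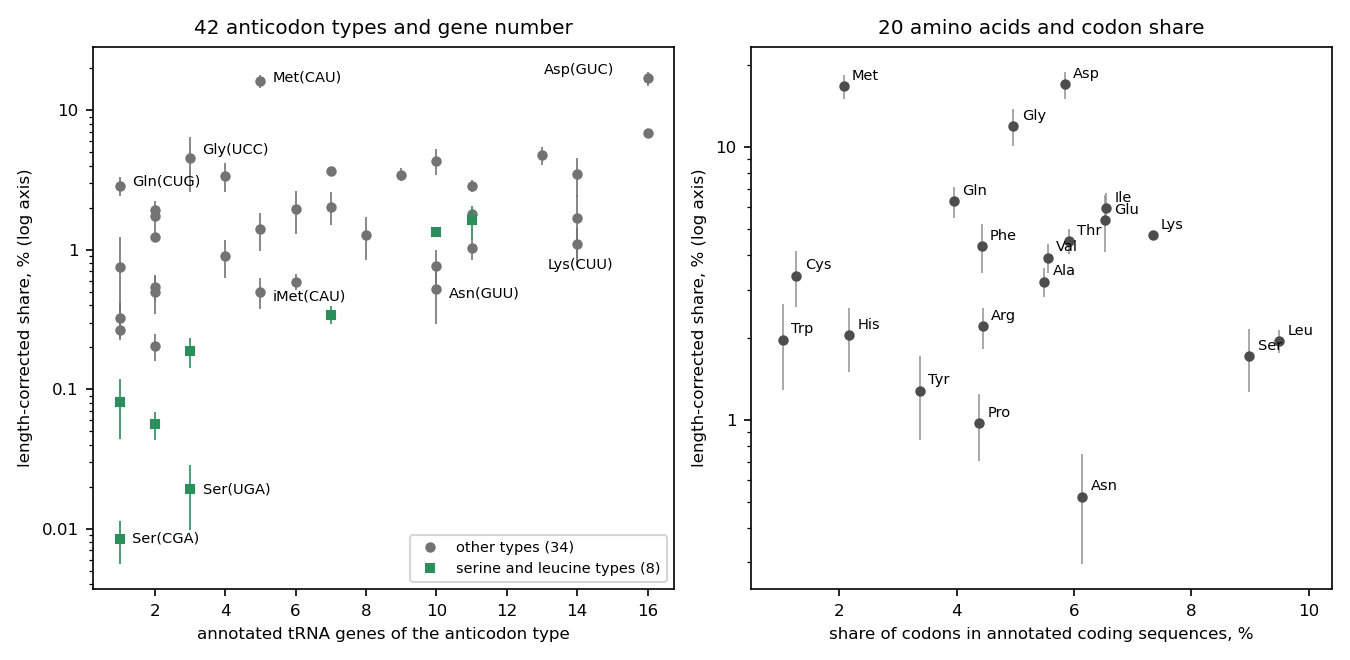
Left, length-corrected share of 42 anticodon types (percent, log axis) against the number of annotated genes, with serine and leucine types as squares. Right, the same quantity for 20 amino acids against their percentage of codons in annotated coding sequences. Points are means of the 2 libraries and lines join the libraries, and the types with 1 gene run from Ser(CGA) to Gln(CUG).

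Types whose genes all hold an intron, which is removed during maturation, were 10 with 21.5% of the genes, and had a length-corrected share of 17.0% in replicate 1 and 12.6% in replicate 2. Their median type stood at 1.25%, beside 1.51% for the 32 types without introns. Reads across a splice junction have no ungapped match in the listed sequences, and the part of this in these shares was not tested. The first anticodon base pairs with the last base of the codon, and types that begin with G held 35.3% and 35.6% with 26.9% of the genes. Those with C held 27.2% and 29.2% with 18.5% of the genes, those with U held 21.6% and 23.8% with 29.1%, and those with A, which is modified to inosine in mature tRNAs, held 15.8% and 11.3% with 24.7%. The G group holds Asp(GUC) and the C group holds elongator methionine.

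Within the 13 amino acids with several types (initiator and elongator methionine counted apart), 11 had the same leading type in both libraries, and 10 had the same lowest type. In 10 of the 13 the leading type by the mean length-corrected share was also the type with the most genes. The exceptions were methionine, where both types have 5 genes, lysine and valine. The values in the next paragraphs are length-corrected shares within the amino acid unless stated otherwise.

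The most uneven pair with equal gene number was methionine. The initiator had 3196 reads in replicate 1 and 5311 in replicate 2, or 0.615% and 0.370% of all aligned reads, against 14.4% and 18.0% for the elongator. Per nucleotide, the elongator exceeded the initiator 23.0-fold in replicate 1 and 48.1-fold in replicate 2. The 2 methionine tRNAs shared no 19-nucleotide window, the shortest fragment length selected.

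Serine was dominated by Ser(AGA), with 96.1% in replicate 1 and 93.3% in replicate 2 where it has 64.7% of the serine genes. Ser(CGA) was the lowest, 180-fold and 212-fold below Ser(AGA) per nucleotide. Of the 19-nucleotide windows of the genes of a serine type, those that also occur in another serine type or in the undetermined genes were 79.5% for Ser(GCU), 48.4% for Ser(UGA), 37.3% for Ser(CGA) and 2.44% for Ser(AGA). Of the 35-nucleotide windows, these parts were 55.2%, 12.5%, 8.96% and 0%, in the same order. The low serine types thus had the most shared windows, and among them Ser(CGA), the least read, had the lowest part at both lengths. The part of read placement in their counts was not tested.

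Leucine was led by Leu(CAA), at 65.0% and 72.7% with 47.6% of the genes, and Leu(GAG), which has 1 gene, was lowest at 5.61% and 2.51%. Arginine was led by tRNA-Arg(UCU), at 46.3% and 46.7%, with tRNA-Arg(CCU) lowest on the mean at 11.5% and 12.7%. tRNA-Arg(CCG) had 16.4% and 12.3%, so that the lowest arginine type changed between the libraries. Proline was led by Pro(UGG), at 80.0% and 77.4%, with tRNA-Pro(AGG) at 19.99% and 22.6%. Isoleucine was led by Ile(AAU), at 80.5% and 78.2%, with tRNA-Ile(UAU) at 19.5% and 21.8%. For proline and isoleucine, the leading type held somewhat less than its part of the genes, which is 83.3% for Pro(UGG) and 86.7% for Ile(AAU). All Pro(UGG) and Ile(UAU) genes hold an intron, and no Pro(AGG) or Ile(AAU) gene does. Junction reads therefore have no ungapped match on 1 side of each pair only, and the part of this was not tested.

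In glutamine and glutamate the type with fewer genes had a larger part of the reads than of the genes, without leading, and in lysine the type with fewer genes led. Gln(CUG), with 1 of 10 glutamine genes, had 43.8% in replicate 1 and 46.5% in replicate 2, and Gln(UUG), with the other 9, had 56.2% and 53.5%. Per gene and nucleotide, Gln(CUG) was read 7.02-fold and 7.81-fold more than Gln(UUG). Of the 19-nucleotide windows of the Gln(CUG) gene, 27.8% also occur in Gln(UUG) genes, and no 35-nucleotide window does. tRNA-Glu(CUC), with 12.5% of the glutamate genes, had 31.3% and 42.4% beside 68.7% and 57.6% for tRNA-Glu(UUC), and 33.3% of its 19-nucleotide windows occur in Glu(UUC). tRNA-Lys(UUU), with 33.3% of the lysine genes, had 70.6% and 83.2% beside 29.4% and 16.8% for Lys(CUU), with no shared window. The lysine pair was thus turned against gene number in both libraries, and no exactly matching read of the selected lengths fits both types. All 7 Lys(UUU) genes hold an intron, and 0 of the 14 Lys(CUU) genes do. The parts of junction reads and of read placement in the balances of this paragraph were not tested.

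The balance moved most between the libraries in valine, threonine and glycine, by over 20 percentage points each. tRNA-Val(AAC), with 77.8% of the valine genes, had 56.2% in replicate 1 and 25.4% in replicate 2, and tRNA-Val(UAC), with 2 genes, had 29.1% and 64.4%. tRNA-Val(CAC) was lowest in both, at 14.7% and 10.1%. The leading valine type was therefore not the same in the 2 libraries. Gly(GCC) had 67.5% and 50.1% beside 26.0% and 46.7% for Gly(UCC), and tRNA-Gly(CCC) was lowest at 6.52% and 3.12%. Thr(AGU) led threonine with 78.0% and 52.1%. Thr(CGU) had 6.58% and 24.5%, and Thr(UGU) 15.4% and 23.4%, so that the lowest threonine type was Thr(CGU) in replicate 1 and Thr(UGU) in replicate 2. Alanine turned as well, with tRNA-Ala(AGC) at 49.1% and 65.6% and tRNA-Ala(UGC) at 50.9% and 34.4%.

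**Figure D3:**
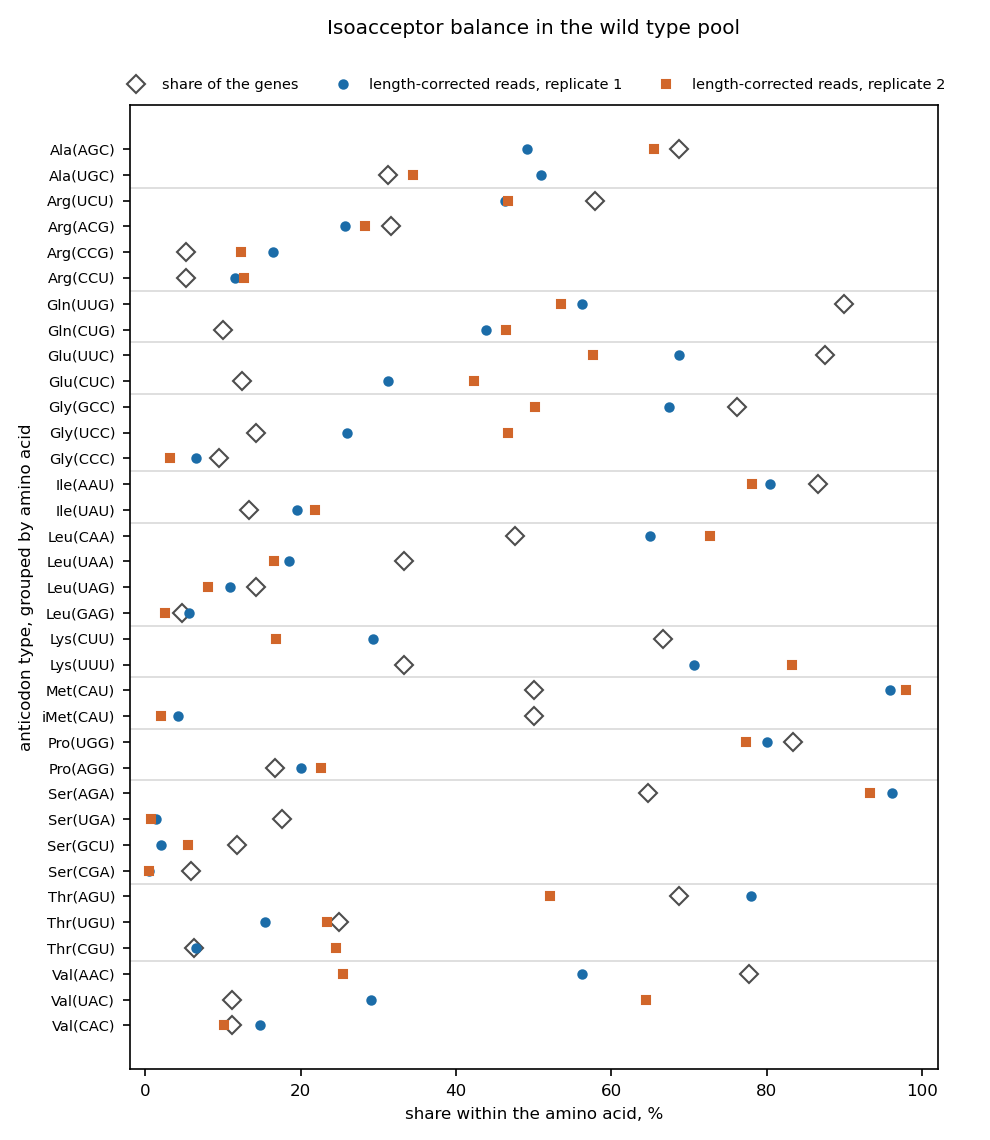
Length-corrected share of each anticodon type within its amino acid, in percent, for the 13 amino acids with several types, with circles for replicate 1, squares for replicate 2 and open diamonds for the type's share of the amino acid's genes. Reads and genes part most for methionine, lysine, valine and glutamine, and the libraries part most for valine, threonine and glycine.

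The 2 libraries ordered the tRNAs alike but did not give the same pool. Across the 70 sequences the shares had a Spearman rho of 0.949, and 8 of the 10 highest and 7 of the 10 lowest sequences were the same in both. The median sequence differed 1.64-fold. Every sequence's counting interval for the ratio of its share in replicate 2 to that in replicate 1 left out 1 (70 of 70). The differences in share were thus larger than counting error, and such intervals were not taken under other scalings. With 1 library on each side no test against replicate error was possible. edgeR's common biological coefficient of variation, the spread between libraries beyond counting error, was 0.336.

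Of the 70 sequences, 15 were at least 2-fold apart in share (21.4%). Replicate 2 was higher for 3 (4.29%) and lower for 12 (17.1%). The median ratio of replicate 2 to replicate 1 was 0.722, and the 3 most read sequences held 34.1% of replicate 1 and 41.9% of replicate 2. When the libraries were scaled by TMM, which centres most tRNAs on a ratio near 1, replicate 2 was at least 2-fold higher for 7 sequences and lower for 2, and with DESeq2 size factors it was higher for 7 and lower for 3. Of the 15, 5 were also called under TMM and 6 under DESeq2 size factors. Each scaling multiplies all ratios by the same factor, so the order of the sequences by their ratio is the same in all cases. The direction is not, since under either scaling 20 of the 70 ratios passed from below 1 to above 1.

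Summed by anticodon, 9 of 43 types were at least 2-fold apart (20.9%), 2 higher (4.65%) and 7 lower (16.3%) in replicate 2. Under both scalings the 9 types called were 6 higher and 3 lower, and 5 types were called in every case. These 5 were Thr(CGU), Gly(UCC), Val(AAC), Leu(GAG) and Ser(UGA).

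Thr(CGU) differed most. It had 1361 reads (0.262%) in replicate 1 and 17454 reads (1.22%) in replicate 2, a ratio of 4.64 (95% counting interval 4.39 to 4.90). Gly(UCC), a glycine tRNA with 3 genes, had 13372 and 91572 reads and a ratio of 2.48 (2.43 to 2.52). Both were higher in replicate 2 under each scaling. Val(AAC), the valine type with 14 genes, had 2.52% and 0.891% of the aligned reads and a ratio of 0.354 (0.345 to 0.363). Ser(UGA) had a ratio of 0.344 (0.277 to 0.428) and Leu(GAG) one of 0.369 (0.333 to 0.410), each on fewer than 1000 reads a library. These 3 were lower in replicate 2 under each scaling.

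The other 4 types were called by share alone. tRNA-Asn(GUU), the only asparagine tRNA, had 3954 and 4307 reads and a ratio of 0.394 (0.377 to 0.411). tRNA-Trp(CCA) had a ratio of 0.487 (0.477 to 0.498), tRNA-Tyr(GUA) one of 0.492 (0.479 to 0.505) and Ser(CGA) one of 0.486 (0.354 to 0.667). As Asn(GUU), Trp(CCA) and Tyr(GUA) are the only tRNAs of their amino acids, asparagine, tryptophan and tyrosine were also the 3 of 20 amino acids (15.0%) at least 2-fold apart, all lower in replicate 2, and 0 of 20 (0.0%) were at least 2-fold higher. The 4 types called only under the scalings were His(GUG), Ser(GCU), Thr(UGU) and Val(UAC), all higher in replicate 2, with share ratios of 1.72, 1.61, 1.89 and 1.73.

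The listed Thr(UGU) sequences moved in opposite directions. The first had 983 reads in replicate 1 and 1007 in replicate 2, a share ratio of 0.371 (0.339 to 0.405), and the second had 2206 and 15699 reads, a ratio of 2.57 (2.46 to 2.69). The second exceeded the first 2.24-fold in replicate 1 and 15.6-fold in replicate 2. Both are 72 bases long, so which of the 2 printed sequences is which listed one is not known here. 2 further types held sequences far apart within a library. The aspartate sequence of 15 genes had 8.11-fold and 11.3-fold the reads of the other, and the highest of 3 Gln(UUG) sequences had 12.1-fold and 19.9-fold the reads of the lowest. Within each of these types, Thr(UGU) included, the sequences share identical stretches. How reads from those stretches were placed is not given in the sources used here, and its part in these counts was not tested.

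In contrast, 8 of 19 groups of near-identical sequences, 24 sequences in all, had counts within sampling noise of an equal split in both libraries (smallest adjusted p 0.101, chi-square test with Benjamini-Hochberg adjustment). They included 6 copies of Pro(UGG), 5 of Leu(CAA), both Val(AAC) sequences and both Lys(UUU) sequences. They also included the pair of Ser(GCU) and the undetermined tRNA, which was chosen after its values were seen, so that its passing carries no weight. Some of the 19 groups lie within others, as the Pro(UGG) copies were tested alone and with the second Pro(UGG) sequence. The Val(AAC) pair and both Tyr(GUA) sequences of such groups were counted singly among the 15 sequences at least 2-fold apart, and 2 of the Pro(UGG) copies among the 10 least read, while the counts by anticodon hold each type once.

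**Figure D4:**
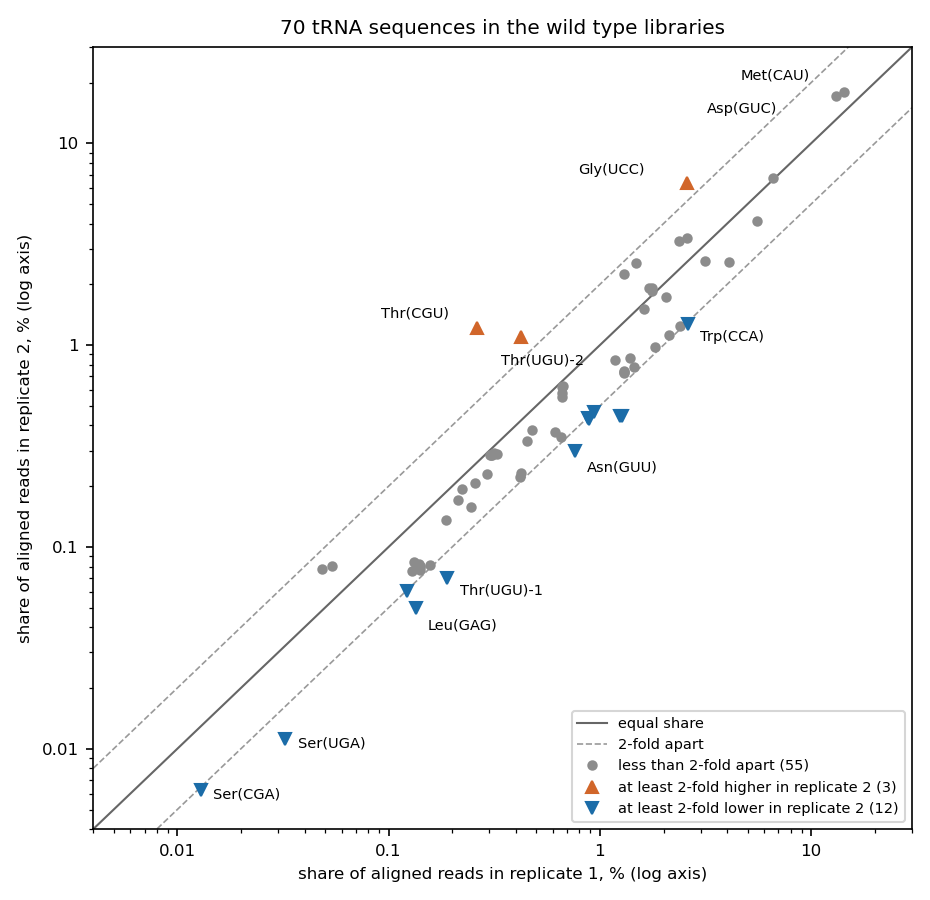
Share of aligned reads of 70 tRNA sequences in replicate 2 against replicate 1, in percent on log axes, with the line of equal share and dashed lines at 2-fold. Up triangles mark the 3 sequences at least 2-fold higher in replicate 2 and down triangles the 12 at least 2-fold lower, and more points lie under the line of equal share (55) than over it (15).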

How the data were processed

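On the Galaxy platform, the authors removed adapters and low-quality bases and aligned what was left to a list of all unique yeast tRNA sequences. The deposited values are raw read counts per listed sequence from IdxStats, beside its length and the reads aligned to none. The submitters' processing notes name Bowtie and SAMtools. Versions, mismatches allowed and the placement of reads that fit several sequences are not given in the sources used here. Listed lengths equal those of genes with introns, so a read across a splice junction has no ungapped match in them.

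Samples were grouped by the labels. Shares were counts over the sum of aligned reads, and the 519302 and 1435676 aligned reads set a floor (3 counts) of 0.000578% and 0.000209%. Intervals are 95% (Wilson for shares, Poisson on the log scale for ratios) and cover counting error only. Shares were compared at 2-fold with no p-value. The coefficient of variation came from edgeR version 4.0.16 (R version 4.3.3) with an intercept only, over sequences with at least 10 counts in both libraries, and DESeq2 version 1.42.0 gave size factors. Anticodons and gene numbers were read from R64, whose build may differ from that of the authors' list, and 33 of the 70 listed sequences matched 1 gene sequence by anticodon and length.

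Named were the 10 highest and 10 lowest sequences, every type at least 2-fold apart, the highest and lowest type of each amino acid, and each amino acid. The members and lists were chosen with earlier results of these data known. The printed sequences of Ser(UGA), Gln(CUG) and Thr(CGU), the other types and pairs named and the window counts were added after values were seen. Alternatives were other scalings, folds, a count filter, an added 0.5, length correction, and each library left out. The deletion strains were not used here.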

Additional observations from a re-analysis of the deposited data

Results flagged for a closer look

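Reads aligned to no tRNA were counted in the deposited files but entered no comparison. They numbered 7159329 in wild type replicate 1 and 20894452 in replicate 2. What these reads are was not tested.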

How the results depend on the processing

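With either library alone, the most read sequence had 14.4 to 18.0% of the reads, its own 10 most read had 57.0 to 66.8%, the effective number of types was 19.1 to 23.1, the Spearman correlation with gene number was 0.464 to 0.627, and 8 to 10 groups of copies stayed within sampling noise. With 2 libraries, a mean then always moves by less than 1 SD. Entropy over single sequences gave an effective number of 27.9. The count of sequences at least 2-fold apart, 15, became 9 under TMM, 40 at 1.5-fold and 1 at 3-fold. The count of anticodon types, 9, became 26 at 1.5-fold and 1 at 3-fold, and was 6 with at least 1000 counts in both libraries. The Spearman correlation of share with gene number was 0.373 with codon number in its place and, in a setting chosen after seeing the data, 0.477 without serine and leucine tRNAs. The coefficient of variation, 0.336, was 0.371 by anticodon and 0.192 as DESeq2's median gene-wise value. The cause of these shifts beyond the settings' own construction was not tested. No paired analysis was possible because only 1 group was described and its values come from no test between groups. The 56 values by amino acid or within one moved by less than 1 SD when reads were divided by spliced length. Depth limits only the lowest serine types, where 67 to 168 reads leave wide intervals.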

Other observations

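Grouped by the side chain of the amino acid, the 6 types for acidic and amide residues (aspartate, glutamate, asparagine, glutamine) held a length-corrected share of 27.9% in replicate 1 and 30.4% in replicate 2 with 18.9% of the genes. The 16 types for small and aliphatic residues held 28.2% and 27.7% with 37.5% of the genes. The 7 basic types held 8.99% and 9.001% with 17.1% of the genes, and this group differed least between the libraries. Hydroxyl and sulphur residues (serine, threonine, cysteine, methionine) held 25.3% and 27.2% with 17.1%. The 3 aromatic types held 9.59% and 5.58% with 8.73%. All 3 of them, Phe(GAA), Trp(CCA) and Tyr(GUA), had a lower share in replicate 2, with ratios of 0.662, 0.487 and 0.492. Of all 43 types, 29 had a lower share in replicate 2, so this is not particular to the aromatic types. Under either scaling the ratios of the 3 aromatic types also stayed below 1.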
